A study of Homo sapiens with 9 samples.

Results

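SYT11 and SYP, 2 genes of the secretory vesicle membrane, had the largest fold increases in MDA-MB-231 cells after 24 h of TEPA among genes with a mean of at least 100 counts. That mean is over all 9 libraries, and both genes reached it only through their 24 h libraries. They are described here with 6 other synaptic and neuronal genes (SYT1, SNAP25, STX1A, VAMP2, SYN1 and STMN3), with REST, the repressor of many neuronal genes, and with RCOR1, its corepressor. These are 10 of the 59453 gene names in the count table. SYT11 and SYP were chosen by their fold change between untreated and 24 h libraries, so their own values are a description without a test. The other 8 were listed by name, to ask whether REST and further synaptic genes changed along with them.

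Stranded mRNA libraries were sequenced from MDA-MB-231, an established human triple-negative breast cancer line grown in flasks in serum-containing medium, in 3 groups of 3 libraries. Cells were left untreated or were given TEPA, a copper-chelating polyamine, for 8 h or 24 h. The labels put TEPA at 8 mM for these cells, whereas the study's sequencing methods state a lower concentration. The same 3 untreated libraries were the reference for both times, so the comparisons at 8 h and 24 h share them, and nothing in the labels says that the replicates were separate cultures, so that p-values measure the spread between these libraries, which may be technical. Total counts ran from 34633755 to 49342659 per library. Vimentin (VIM), a mesenchymal filament protein of this line, was abundant at 3242 to 4435 CPM (counts scaled to the size of each library), PGR had no count in any library, and ESR1 had at most 9 counts. ERBB2 was at 81.4 ± 5.11 CPM in untreated cells (SD, n = 3). In a bulk library, fewer cells with a transcript and less of it per cell cannot be told apart.

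In neurons, transmitter is stored in synaptic vesicles and is released when the vesicle SNARE VAMP2 assembles with the plasma membrane SNAREs STX1A and SNAP25. SYT1 is the calcium sensor of this fusion, SYP is an abundant membrane protein of the vesicle, and SYN1 tethers vesicles to the cytoskeleton. Outside neurons, many of these genes are held silent by REST (also NRSF), a zinc finger protein that binds the RE1 element and brings in RCOR1 (CoREST), the lysine demethylase KDM1A and histone deacetylases. Secretory epithelial and carcinoma cells use other members of the same SNARE families for their own exocytosis.

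The sequence before the starts of SYT11 and SYP is shown because REST acts through sequence elements near the genes it represses. Both are RefSeq sequence of GRCh38.p14, read on the gene's own strand and limited to bases in no annotated exon. The stretch before SYT11 lies at chr1:155859401-155859566 (plus strand), between the starts of SYT11 and of GON4L, which is transcribed the other way. Its capitals mark a run of 42 bases that occurs at 2 overlapping places 33 bases apart, and 0.581% of the 35116 RefSeq promoters hold a repeated run as long in the 250 bases before the start. The stretch before SYP lies at chrX:49200219-49200443 (minus strand), with a GC content of 73.3% against 57.2% before SYT11. Its longest repeated run was 10 bases, a length reached in 28.6% of promoters. The repeat was looked for after the SYT11 sequence had been seen.
SYT11: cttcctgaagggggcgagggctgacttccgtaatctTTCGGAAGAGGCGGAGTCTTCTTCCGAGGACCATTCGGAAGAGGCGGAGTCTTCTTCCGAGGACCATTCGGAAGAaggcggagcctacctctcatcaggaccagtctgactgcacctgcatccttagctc
SYP: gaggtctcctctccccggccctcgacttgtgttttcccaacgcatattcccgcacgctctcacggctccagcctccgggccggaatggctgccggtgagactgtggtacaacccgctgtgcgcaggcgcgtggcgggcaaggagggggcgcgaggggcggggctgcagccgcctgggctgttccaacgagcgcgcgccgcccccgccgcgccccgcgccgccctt

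The RE1 element has a left and a right arm, and exact matches to the left arm TTCAGCACC, to the right arm GGACAG followed by CGCC, and to their cores CAGCACC and GGACAG were searched on both strands of each 300-base RefSeq promoter. Of the 10 genes, 9 had an entry, all but SNAP25. The cores lie within the arms, so that a match to an arm is also a match to its core. No letters of this kind were found in the promoters of SYT11, SYP, STX1A, VAMP2 or STMN3. The core GGACAG, held by 20.5% of all promoters, was found in those of SYT1 and RCOR1 on the strand opposite to the gene and in 1 of the REST promoters. Only SYN1 among the promoters read here held the left arm, which 0.376% of promoters hold. There the left and right cores followed each other with 2 bases between them, and this joined core (CAGCACC, any 2 bases, GGACAG) was added to the search after the SYN1 sequence had been seen. It occurs in 0.0513% of promoters, and the CAGCACC core alone in 7.75%.

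Within 5000 bases of an annotated start, the joined core was found for 51 of 14458 tested genes (0.353%). Of the 10 genes it was present at SYN1, at chrX:47620074-47620088, centred at base -224 from the annotated start, and at SYP, at chrX:49200126-49200140, centred at base 85 after it. The SYP match is intronic, since 9 of 11 annotated SYP transcripts span it and none has it in an exon. Both matches are on the minus strand, that of the genes, and are printed from hg38 with the 2 cores in capitals. A match is a description of letters and not a measured REST site.
SYN1: cttCAGCACCgcGGACAGtgc
SYP: ctcCAGCACCgtGGACAGagc

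SYT11 (ENSG00000132718.9, chr1:155859567-155885199, plus strand, hg38) encodes a synaptotagmin of vesicle and endolysosomal membranes that lacks calcium binding. It had 15, 17 and 27 counts in the untreated libraries, 79, 56 and 69 after 8 h, and 698, 553 and 385 after 24 h. As CPM on scaled library sizes the level was 0.486 ± 0.173 in untreated cells, 1.77 ± 0.271 after 8 h and 12.4 ± 1.53 after 24 h (SD, n = 3). The 3 groups did not overlap, and every 24 h library lay above every 8 h library. The fitted log2 fold change was 1.87 (standard error 0.23) at 8 h and 4.68 (standard error 0.18) at 24 h, or 3.66-fold and 25.7-fold. Between 8 h and 24 h the level was a further 7.01-fold higher.

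SYP (ENSG00000102003.12, chrX:49187815-49200218, minus strand, hg38) encodes synaptophysin, the vesicle protein long used to stain neuroendocrine tissue. Its counts were 37, 29 and 45 in untreated cells, 77, 67 and 56 after 8 h, and 535, 474 and 359 after 24 h. The CPM level was 0.921 ± 0.259, 1.73 ± 0.201 and 10.5 ± 0.499 in the same order (SD, n = 3). Again the 3 groups did not overlap. The log2 fold change was 0.93 (standard error 0.19) at 8 h and 3.53 (standard error 0.15) at 24 h, or 1.91-fold and 11.5-fold, with a 6.03-fold difference between the times. In both genes the larger part of the rise on the log2 scale came after 8 h, with 2.81 for SYT11 and 2.59 for SYP.

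**Figure D1:**
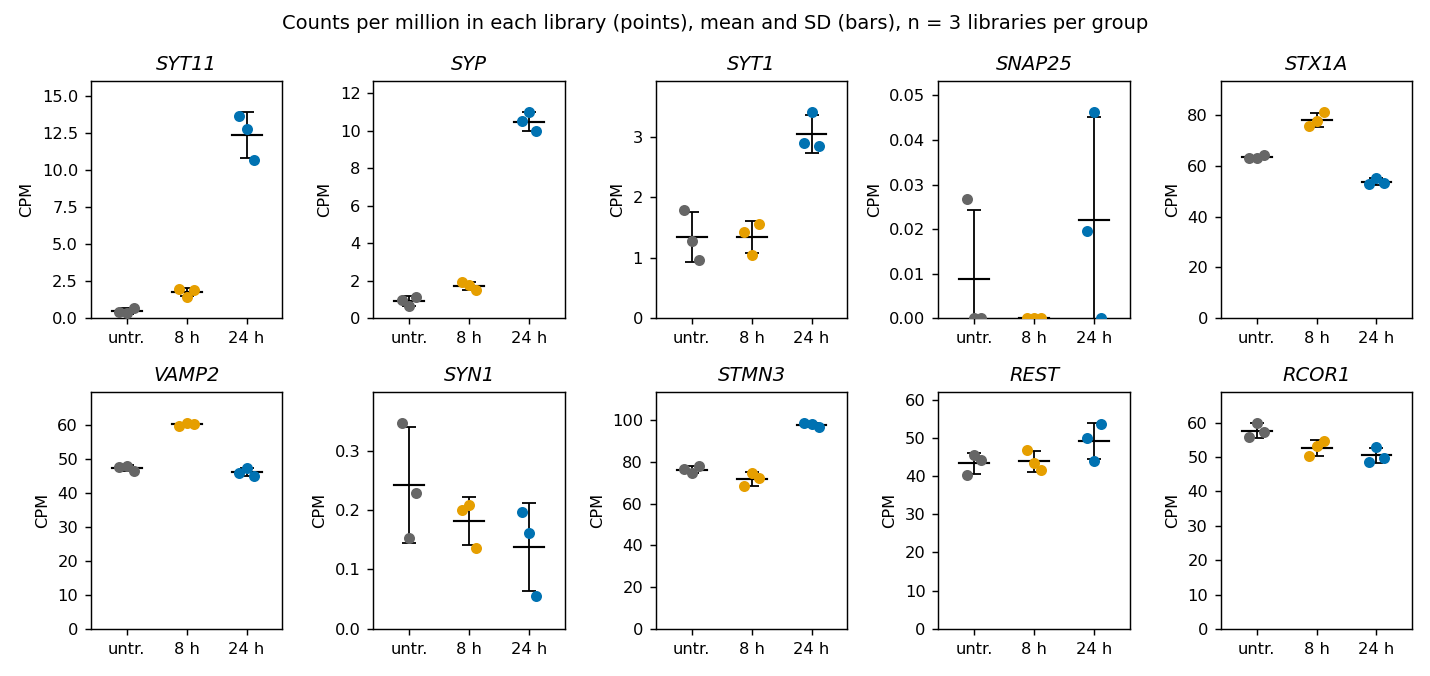
CPM (vertical axis, linear and starting at 0, scale set per panel) of the 10 genes in each untreated, TEPA 8 h and TEPA 24 h library (points), with the mean and SD of 3 libraries (bars). The 24 h libraries of SYT11 lie between 10.7 and 13.7 CPM and those of SYP between 9.98 and 11 CPM, far above their other libraries, whereas REST spans 40.3 to 53.5 CPM over all 9 libraries with overlapping groups.

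By fitted log2 fold change at 24 h, SYT11 ranked 1 of 16556 genes tested, followed by AC022154.1 at 4.43, and SYP ranked 7, followed by NFAM1 at 3.35. Among the 11920 tested genes with a mean of at least 100 counts, SYT11 and SYP ranked 1 and 2, and AC108488.3 came next at 3.01. These ranks are how the genes were chosen. The mean runs over all 9 libraries, and SYT11 and SYP reached 100 counts only through their 24 h libraries. In any other library they had at most 79 and 77 counts. The genes whose log2 CPM followed SYT11 most closely over the 9 libraries, of those 11920, were ZNF546 (Pearson r 0.995), ZMAT5 (0.994), DENND2C (0.993), ALG14 (0.993) and LHFPL4 (0.990). Among those closest to SYP were AMN1 (0.996), STX10 (0.994), ZNF488 (0.994) and TTLL7 (0.991). AMN1, with a log2 fold change of 2.11 at 24 h, had the largest of these changes, and the others named lay between 0.47 and 1.46. The libraries form 3 groups, so these coefficients describe the order of the group levels, and they carry no test.

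SYT1 (chr12:78863993-79452008, plus strand), the calcium sensor of fast release, was the only one of the 6 other synaptic genes named at the outset with a called log2 rise beyond 0.5 at 24 h. It had 67, 58 and 38 counts in untreated cells, 57, 40 and 57 after 8 h, and 148, 147 and 102 after 24 h. Its level was 1.34 ± 0.416 CPM in untreated cells, 1.34 ± 0.263 CPM after 8 h and 3.05 ± 0.311 CPM after 24 h (SD, n = 3). Untreated and 8 h libraries overlapped, and the 24 h libraries lay above all 6 of them. With edgeR's quasi-likelihood test and Benjamini-Hochberg adjustment over all genes tested, SYT1 was not called at 8 h (log2 fold change 0.01, standard error 0.22, adjusted p = 0.98) and was higher at 24 h (1.19, standard error 0.20, adjusted p = 0.0001). That is 2.29-fold, against 25.7-fold and 11.5-fold for SYT11 and SYP.

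SNAP25 and SYN1 were close to the limit of detection and did not pass the expression filter. SNAP25 (chr20:10172395-10308258, plus strand), the neuronal plasma membrane SNARE, had 1, 0 and 0 counts in untreated cells, no count after 8 h, and 1, 2 and 0 counts after 24 h. At this depth no change of SNAP25 was detectable. SYN1 (chrX:47571901-47619857, minus strand) had 13, 7 and 9 counts in untreated cells, 8, 8 and 5 after 8 h, and 10, 7 and 2 after 24 h. The SYN1 groups overlapped, and no 24 h library exceeded the highest untreated one.

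STX1A and VAMP2, the other core SNAREs, were well expressed and moved at 8 h. STX1A (chr7:73699206-73719672, minus strand) had 62.9, 63.1 and 64.1 CPM in untreated cells, 75.6, 77.5 and 81.2 CPM after 8 h, and 52.7, 55.2 and 53.3 CPM after 24 h. It was higher at 8 h (log2 fold change 0.30, standard error 0.04, edgeR adjusted p = 1.8e-05) and lower at 24 h (-0.24, standard error 0.04, adjusted p = 0.00016). The groups did not overlap in either comparison. VAMP2 (chr17:8159149-8163546, minus strand) had 47.7, 47.9 and 46.3 CPM, then 59.7, 60.6 and 60.2 CPM after 8 h, and 45.9, 47.2 and 44.9 CPM after 24 h. It rose at 8 h (0.35, standard error 0.04, adjusted p = 4e-06). At 24 h it was not called, and its libraries overlapped the untreated ones (-0.04, standard error 0.04, adjusted p = 0.42). Between 8 h and 24 h both fell, by 0.54 for STX1A (adjusted p = 3e-08) and by 0.39 for VAMP2 (adjusted p = 8.2e-07).

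STMN3 (chr20:63639705-63657682, minus strand), a stathmin that binds tubulin and is expressed mainly in neurons, showed the other order. It had 76.4, 74.6 and 78.0 CPM in untreated cells, 68.4, 74.8 and 72.3 CPM after 8 h, and 98.5, 98.2 and 96.7 CPM after 24 h. The untreated and 8 h libraries overlapped (log2 fold change -0.09, standard error 0.04, edgeR adjusted p = 0.09), and the 24 h libraries were higher than all others (0.36, standard error 0.04, adjusted p = 2.3e-06). The difference between 24 h and 8 h was 0.45 (adjusted p = 2.2e-07).

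REST (chr4:56907876-56966808, plus strand) was at 40.3, 45.5 and 44.1 CPM in untreated cells, 46.8, 43.3 and 41.5 CPM after 8 h, and 50, 44 and 53.5 CPM after 24 h. No group stood apart, and 1 of the 24 h libraries lay inside the untreated range. REST was not called at 8 h (log2 fold change 0.02, standard error 0.07, edgeR adjusted p = 0.84). At 24 h REST was slightly higher, at 0.18 (standard error 0.07, adjusted p = 0.034), and 4 of the 9 fits that left out 1 library each lost the call, as did the fit with a replicate block. The fits that lost it left out untreated replicate 1 (0.13) or 3 (0.19), or TEPA 24 h replicate 1 (0.17) or 3 (0.12). The difference between 24 h and 8 h was 0.16 (standard error 0.07, adjusted p = 0.054). REST was called lower in none of the 3 comparisons.

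RCOR1 (chr14:102592649-102730561, plus strand), the CoREST scaffold, was at 55.7, 60.0 and 57.3 CPM in untreated cells, 50.2, 53.3 and 54.7 CPM after 8 h, and 48.6, 53.0 and 49.8 CPM after 24 h. All treated libraries lay below all untreated ones. RCOR1 was lower at 8 h (log2 fold change -0.13, standard error 0.05, edgeR adjusted p = 0.036) and at 24 h (-0.19, standard error 0.05, adjusted p = 0.0033). Leaving out 1 library at a time, 4 of 9 fits lost the 8 h call (without untreated replicate 2 or 3, or TEPA 8 h replicate 1 or 2, at -0.14 to -0.10) and none lost the 24 h call. With upper-quartile factors the 8 h call was also lost (-0.12, adjusted p = 0.054). The 24 h and 8 h libraries overlapped (-0.06, adjusted p = 0.29).

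**Figure D2:**
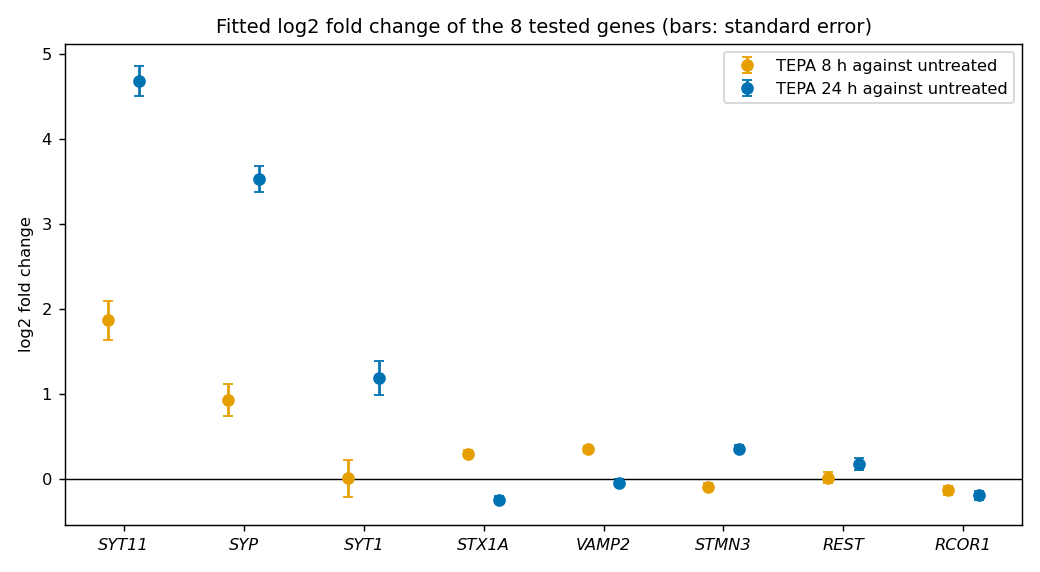
Fitted log2 fold change (vertical axis) of the 8 genes that passed the expression filter, for TEPA 8 h and TEPA 24 h against the same untreated libraries, with standard errors as bars. SYT11 and SYP, which were chosen for this rise, lie at 4.68 and 3.53 at 24 h, SYT1 at 1.19, and the other 5 genes between -0.24 and 0.36.

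Of the 6 tested genes beside SYT11 and SYP, 2 were higher (STX1A, VAMP2), 1 was lower (RCOR1) and 3 were not called at 8 h, where 49.6% of all tested genes were called (25.2% higher and 24.5% lower). At 24 h, 3 were higher (SYT1, STMN3 and REST), 2 were lower (STX1A, RCOR1) and 1 was not called, where 52.5% of all tested genes were called (25.7% higher and 26.8% lower). Between 24 h and 8 h, 2 were higher and 2 lower, against a background of 54.8%. With the further limit of a log2 fold change beyond 0.5, SYT1 alone of the 6 was called at 24 h, where 10.2% of all tested genes were higher and 8.46% lower, and none was called at 8 h, where 10.1% were higher and 7.67% lower. Between the times SYT1 was higher and STX1A lower with that limit, against 10.4% and 10.8% of all genes. Libraries of the 2 groups did not overlap for 57.8% of all genes at 8 h, for 57.2% at 24 h (28.4% higher and 28.9% lower) and for 62% between the times (29.6% higher). With so many genes called in these libraries, the counts at 8 h and between the times stand near the background. The 24 h count lies above it, but 6 genes are too few to read this as a result about them. The median of the 6 log2 fold changes was 0.01 at 8 h and 0.07 at 24 h, and that of all tested genes was 0.00 at both times.

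Levels of different genes were compared as CPM per kilobase of summed exons. In untreated cells the order was STMN3 (25.2 ± 0.565), STX1A (17.2 ± 0.17), VAMP2 (13.9 ± 0.261), RCOR1 (9.3 ± 0.345) and REST (4.6 ± 0.283), and then, far lower, SYT1 (0.142 ± 0.0439), SYP (0.132 ± 0.0372), SYT11 (0.0937 ± 0.0334) and SYN1 (0.065 ± 0.0261). SYT1 and SYP, SYP and SYT11, and SYT11 and SYN1 are neighbours in this order that differed by about their SD or less. After 24 h SYT11 stood at 2.39 ± 0.296 and SYP at 1.5 ± 0.0716, above SYT1 (0.322 ± 0.0329) and still below REST (5.23 ± 0.507), RCOR1 (8.14 ± 0.365), VAMP2 (13.5 ± 0.334), STX1A (14.5 ± 0.346) and STMN3 (32.3 ± 0.308). After 24 h SYT11 thus stood above SYP and SYT1, and SYP above SYT1. Their untreated levels lay too close together to give a starting order.

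Synaptotagmins are membrane proteins that link vesicles to fusion, many of them through calcium. Of 17 synaptotagmin genes, 2 had no count in any library and 6 had at most 3 counts in every library. In untreated cells SYT11 gave 8.47%, 8.95% and 17.5% of all synaptotagmin counts. Its share was 33.1%, 26.9% and 31.5% after 8 h and 69.2%, 65.6% and 60.1% after 24 h, so that from 8 h on it had the highest counts of the family, in place of SYT1. SYT11 was chosen for its rise at 24 h, so its growing share is a description and no result about the family. Besides SYT11, 5 synaptotagmins were tested. None was called at 8 h (median log2 fold change 0.08), and 3 were higher and none lower at 24 h (median 1.19), against 49.6% of all tested genes called at 8 h and 25.7% higher and 26.8% lower at 24 h. When 1 library was left out the 8 h median lay between 0.12 and 0.31, all above 0.08. The highest values were without TEPA 8 h replicate 1 (0.31) and untreated replicate 2 (0.29). The filter was run again in each of these fits, so the synaptotagmins tested can differ from these 5. The shift therefore cannot be read as the weight of 1 library.

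The other 2 that rose with SYT1 were SYT8 (1.21, standard error 0.28, edgeR adjusted p = 0.0018) and SYT15 (1.26, standard error 0.38, adjusted p = 0.01). SYT8 went from 12, 29 and 15 counts in untreated cells to 49, 46 and 41 at 24 h, and SYT15 from 5, 21 and 15 to 43, 30 and 31. These are low counts, and a gene of this kind can pass the filter through the group in which it is high. SYT15 has a near-identical copy, SYT15B, so its counts are uncertain. SYT2 (0.67, adjusted p = 0.11) and SYT7 (0.02, adjusted p = 0.95), both calcium sensors of exocytosis, were not called.

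Synaptophysin belongs to a family with the synaptogyrins, which also span the vesicle membrane. Beside SYP, 4 of its 7 other genes were tested. At 8 h none was higher and 2 were lower, SYNGR3 (-1.23, edgeR adjusted p = 0.0062) and SYNGR1 (-0.33, adjusted p = 0.032). At 24 h 2 were higher, SYPL1 (0.28, adjusted p = 0.0022) and SYNGR2 (0.17, adjusted p = 0.00078), which are the widely expressed members, at 162 ± 12.7 and 177 ± 3.62 CPM. The median was -0.22 at 8 h and 0.02 at 24 h. At 8 h 1 gene was lower without untreated replicate 3, and 1 (median -0.11) with at least 10 counts in every library, and without the filter the median was -0.32. The background was 24.5% of all tested genes lower at 8 h, and 25.7% higher at 24 h.

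Of 16 SNARE genes, 15 were tested, and 4 were higher and 4 lower at 8 h, with a median of -0.02, against 25.2% of all tested genes higher and 24.5% lower. VAMP1, a close relative of VAMP2, rose with it at 8 h (0.76, standard error 0.10, edgeR adjusted p = 9.9e-06) and, like it, was not called at 24 h (0.11, adjusted p = 0.4). STX3, a syntaxin of the apical membrane in epithelia, followed STX1A, higher at 8 h (0.20, adjusted p = 0.0019) and lower at 24 h (-0.24, adjusted p = 0.00041). At 24 h 2 SNAREs were higher and 5 lower, with a median of -0.03 and a background of 25.7% higher and 26.8% lower. The higher ones were SNAP29 (0.29, adjusted p = 1e-05) and STX4 (0.22, adjusted p = 0.00046), and VAMP4, of the trans-Golgi network, had the lowest value (-0.44, adjusted p = 0.0027). SNAP23, the widely expressed relative of SNAP25, fell by 0.22 at 8 h (adjusted p = 0.0011) and was at 0.02 (adjusted p = 0.69) at 24 h. None of these 15 genes passed the log2 limit of 0.5 at 24 h, where 18.7% of all tested genes did. STX10, a syntaxin outside this list and among the genes closest to SYP, was at 0.70.

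SNARE regulators prepare vesicles for fusion. Of 24, 18 were tested, with 6 higher and 6 lower at 8 h (median 0.06) and 8 higher and 5 lower at 24 h (median 0.07). The shares of all tested genes were 25.2% higher and 24.5% lower at 8 h, and 25.7% and 26.8% at 24 h. UNC13A, which primes synaptic vesicles, had 2.0, 1.75 and 1.52 CPM in untreated cells, 0.975, 0.941 and 1.09 CPM after 8 h, and 3.53, 3.01 and 3.11 CPM after 24 h. It was thus lower at 8 h (-0.81, standard error 0.17, edgeR adjusted p = 0.001) and higher at 24 h (0.88, standard error 0.14, adjusted p = 9.7e-05), with no overlap of groups. DOC2A, a calcium sensor of spontaneous release, was higher at both times, at 0.48 (adjusted p = 0.015) and 1.27 (adjusted p = 1.5e-06). RIMS2, a protein of the release site, rose by 0.87 at 8 h (adjusted p = 0.0032), and its 24 h value of 0.54 (adjusted p = 0.048) came with overlapping libraries.

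Without TEPA 8 h replicate 3, 3 regulators were higher at 8 h, and without TEPA 24 h replicate 3, 5 were higher at 24 h. The largest fall of a regulator at 24 h was that of RAB27B. This gene, which encodes a small GTPase of secretory granules and exosomes, had 35.6 ± 2.72 CPM without TEPA, 21.5 ± 2.29 CPM after 8 h and 16.8 ± 1.68 CPM after 24 h (SD, n = 3). On the log2 scale that was -0.73 (edgeR adjusted p = 3.4e-06) and -1.09 (adjusted p = 3.8e-08). UNC13D, the UNC13 protein of granule exocytosis, at 470 ± 5.78 CPM in untreated cells, was lower at 24 h (-0.38, adjusted p = 1.8e-06). RAB27A, a close relative of RAB27B (0.20, adjusted p = 0.018), and STXBP2, a syntaxin partner in granule release (0.26, adjusted p = 0.00065), were higher at 24 h, and RAB3D was at 0.06 (adjusted p = 0.51).

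Of 23 other synaptic vesicle genes, among them the synapsins, transmitter transporters and synucleins, 8 were tested, and 9 had no count in any library. At 8 h 3 were higher and 2 lower (median 0.27), and at 24 h 5 were higher and none lower (median 0.36). In all tested genes 25.2% were higher and 24.5% lower after 8 h, and 25.7% and 26.8% after 24 h, and with 8 genes tested the list is short. Without the filter both medians were below 0, at -0.09 and -0.03, and 1 gene was lower at 8 h without TEPA 8 h replicate 2 or 3. SLC17A7, a vesicular glutamate transporter, had the largest rise at 24 h (1.54, standard error 0.33, edgeR adjusted p = 0.00095), from 14, 7 and 8 counts to 36, 29 and 26. BSN, a large scaffold of the active zone, rose by more at 8 h (1.30, adjusted p = 0.00015) than at 24 h (0.59, adjusted p = 0.039). Its untreated and 24 h libraries overlapped. SYNJ1, a phosphatase of vesicle recycling, and SCAMP5, a secretory carrier protein, were higher at both times, by 0.45 and 0.51 for SYNJ1 and by 0.52 and 0.44 for SCAMP5 (adjusted p at most 2.1e-06). Of 4 stathmins, STMN1 and STMN3 were tested. STMN1, of dividing cells, was lower at 8 h (-0.19, edgeR adjusted p = 0.00021) and at 0.05 (adjusted p = 0.2) at 24 h.

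The 20 genes of the REST corepressor list were all tested. At 8 h 5 were higher and 10 lower (median -0.08), and at 24 h 3 were higher and 12 lower (median -0.15). Of all tested genes, 25.2% were higher and 24.5% lower at 8 h, and 25.7% higher and 26.8% lower at 24 h. REST itself was among the higher ones at 24 h. RCOR2, the paralog of RCOR1 found in stem and neural cells, had the largest change. It went from 61, 61 and 31 counts in untreated cells to 17, 14 and 15 after 8 h and 6, 9 and 11 after 24 h. The log2 fold change was -1.63 at 8 h (standard error 0.32, edgeR adjusted p = 0.00053) and -2.61 at 24 h (standard error 0.35). RCOR2 passed the filter through its untreated and 8 h libraries. Its 24 h test is therefore not given, although it is counted among the lower genes above. At 1.25 ± 0.427 CPM in untreated cells it was far below RCOR1 in counts.

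KDM1A, the demethylase that RCOR1 docks to chromatin, had 132 ± 0.326 CPM without TEPA, 128 ± 1.03 CPM after 8 h and 93.8 ± 1.21 CPM after 24 h (SD, n = 3). It was not called at 8 h (-0.05, edgeR adjusted p = 0.22) and fell by 0.50 at 24 h (standard error 0.03, adjusted p = 9.2e-09), where the groups did not overlap. CTBP1, a corepressor that joins the same complex, was lower at both times, by -0.33 (adjusted p = 1.5e-06) and -0.54 (adjusted p = 5.5e-09). CTDSPL, a small phosphatase recruited by REST, was lower mainly at 8 h (-0.72, adjusted p = 7.7e-08, against -0.19, adjusted p = 0.0087, at 24 h). HDAC1, a histone deacetylase of the complex, fell by 0.34 at 8 h (adjusted p = 4.6e-06) and was at -0.04 (adjusted p = 0.36) at 24 h. PHF21A, a reader of unmethylated histone H3 in the same complex, rose at 24 h (0.51, standard error 0.08, adjusted p = 4e-05).

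REST protein is set by degradation and by splicing, which counts per gene do not show. BTRC, the ubiquitin ligase subunit that marks REST, was slightly higher at both times (0.16, edgeR adjusted p = 0.016, and 0.15, adjusted p = 0.02). USP7, which removes ubiquitin from REST, was higher at 8 h (0.11, adjusted p = 0.027) and lower at 24 h (-0.24, adjusted p = 0.00013). TERF2, a telomere protein that stabilises REST, was higher at 24 h (0.20, adjusted p = 0.0047). These small differences were near the threshold at 8 h, where neither BTRC nor USP7 was called without untreated replicate 3 or TEPA 8 h replicate 2. SRRM4, which splices REST in neurons, had no count in any library.

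A list of 32 known REST target genes held SYP, SNAP25, SYN1 and STMN3. Of the 31 beside SYP, 12 were tested, 14 had at most 3 counts in every library, and 8 of these had none. At 8 h 3 of the 12 were higher and 6 lower (median -0.21), and at 24 h 6 were higher and 4 lower (median 0.20), in libraries in which 49.6% and 52.5% of all tested genes were called. With at least 10 counts in every library 2 were lower at 24 h. Between 24 h and 8 h 7 were higher and 2 lower (median 0.24), beside 26% and 28.8% of all tested genes. SCG2, a granin of dense-core vesicles, had 11, 7.77 and 9.13 CPM in untreated cells, 7.32, 7.37 and 7.43 CPM after 8 h, and 21.3, 20.5 and 20.6 CPM after 24 h. It was lower at 8 h (-0.33, edgeR adjusted p = 0.014) and higher at 24 h (1.17, standard error 0.09, adjusted p = 4.7e-08). CELSR3, an adhesion receptor of axon guidance, was higher at both times, at 0.63 (adjusted p = 2e-06) and 0.94 (adjusted p = 1.6e-08), as was MAPK8IP1, a JNK scaffold (0.31 and 0.49, adjusted p = 0.00053 and 5.4e-06).

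Other genes of the list were lower at 8 h, at 24 h or at both times. SCN2A, a neuronal sodium channel, had 25, 46 and 19 counts in untreated cells, 12, 10 and 9 after 8 h, and 10, 12 and 6 after 24 h. Its log2 fold changes were -1.42 and -1.74. SCN2A passed the filter mainly through its untreated libraries, so its tests are not given, although it is counted among the lower genes above. VGF, a secreted neuropeptide precursor, was lower at both times (-0.70, edgeR adjusted p = 8e-06, and -0.62, adjusted p = 1.8e-05). SLC12A5, the neuronal chloride exporter, had 11, 14 and 7 counts in untreated cells and 3, 4 and 3 after 24 h. It passed the filter through its untreated and 8 h libraries, so its test is not given, although it is counted among the lower genes above. GAD1, which makes GABA, was higher at 8 h (0.45, adjusted p = 0.00038) and lower at 24 h (-0.67, adjusted p = 1.4e-05). L1CAM, a neural adhesion molecule with the highest CPM of the list, fell by 0.66 at 8 h (adjusted p = 1.3e-07) and was at 0.06 (adjusted p = 0.41) at 24 h.

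Genes with the joined RE1 core near their start were then taken from the sequence alone. Beside SYP, 50 such genes were tested. Neighbouring genes that share the same match were counted separately. They are ALG12 with CRELD2, C8orf82 with LRRC24, KREMEN2 with PAQR4, MAST1 with RTBDN, and TAPBP with ZBTB22. At 24 h 19 were higher and 11 lower (median of the log2 fold changes 0.05), and 9 higher and 5 lower genes passed the limit of 0.5. Of all tested genes 25.7% were higher and 26.8% lower at 24 h, with 10.2% and 8.46% past that limit. At 8 h 14 were higher and 15 lower, with a median of 0.03, where the shares of all tested genes were 25.2% and 24.5%. The highest at 24 h were DISP3 (1.29, edgeR adjusted p = 0.02), HIC1, a zinc finger repressor (1.28, adjusted p = 1.3e-09), MMP24, a membrane metalloproteinase of neurons (1.17, adjusted p = 0.0032), and PRSS27, a serine protease (1.13, adjusted p = 0.00013). The lowest were OGDHL (-1.38), PRDM11 (-0.90, adjusted p = 2.3e-06), MGAT5B, a glycosyltransferase of brain (-0.68, adjusted p = 4.3e-07), and ABCC3, an export pump (-0.60, adjusted p = 2.5e-07). OGDHL had 10, 9 and 4 counts at 24 h and passed the filter through its untreated and 8 h libraries. Its test is therefore not given, although it is counted among the lower genes. SYP, at 3.53, was chosen for its rise, so that its place above these genes is no result.

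The genes beside SYT11 and SYP on the chromosome are described with their own values, since SYT11 and SYP were chosen for their rise and lower values beside them are no result. Within 100 kb of SYT11, 5 of 8 annotated genes were tested, and at 24 h 2 were higher and 2 lower, between -0.48 and 0.27, where 52.5% of all tested genes were called. GON4L, whose annotated start lies 0.167 kb from that of SYT11 on the other strand, was higher at both times (0.29, edgeR adjusted p = 0.00025, and 0.27, standard error 0.05, adjusted p = 0.00044). KHDC4, an RNA-binding protein, was higher by 0.64 after 8 h (adjusted p = 1.7e-08) and by 0.17 after 24 h (adjusted p = 0.0043). RIT1, a RAS-like GTPase, was at 0.02 (adjusted p = 0.79) and -0.15 (adjusted p = 0.011). ARHGEF2, a guanine nucleotide exchange factor, was lower at both times (-0.38, adjusted p = 6e-06, and -0.48, adjusted p = 3.5e-07), and its antisense gene ARHGEF2-AS2 was higher at 8 h (0.79, adjusted p = 0.02).

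Within 100 kb of SYP, 8 of 12 annotated genes were tested. HSPB1P2, a processed pseudogene, passed the filter through its 24 h libraries, with at most 23 counts and a mean of 0.13 CPM in untreated cells and 0.472 CPM after 24 h, and its reads can be shared with its parent gene, so its test is not given. Of the other 7 genes none was called at 8 h, where 49.6% of all tested genes were called. At 24 h 3 were higher and 3 lower, with a median of 0.16, against 25.7% of all tested genes higher and 26.8% lower. MAGIX had the largest value (0.93, standard error 0.24, edgeR adjusted p = 0.0042). WDR45, an autophagy protein, and PPP1R3F, a phosphatase subunit, were higher by 0.42 and 0.32, and PLP2, GPKOW and CCDC22 were lower, at -0.24, -0.27 and -0.35. PRICKLE3, the tested gene nearest to SYP, was at 0.16 (adjusted p = 0.13). SYP-AS1, the gene antisense to SYP, had at most 2 counts in any library in a count that used strand.

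Markers of neurons and neuroendocrine cells were read beside these genes. Of 18, 9 had no count in any library, among them CHGA, CHGB, INSM1 and NEUROD1, 13 had at most 3 counts in every library, and 2 passed the filter. Their summed level was 121, 103 and 113 CPM in untreated cells, 101, 104 and 103 CPM after 8 h, and 81.2, 85.3 and 78.9 CPM after 24 h, and nearly all of it was ENO2, a glycolytic enzyme that tumour cells also express. ENO2 was slightly lower at 8 h (-0.13, edgeR adjusted p = 0.041) and lower at 24 h (-0.47, standard error 0.05, edgeR adjusted p = 1.5e-06). Without it the sum was 1.09, 0.897 and 1.04 CPM in untreated cells, 0.875, 1.18 and 1.09 CPM after 8 h, and 1.59, 1.23 and 1.64 CPM after 24 h, mostly from MAP2 (log2 fold change 0.45 at 24 h, adjusted p = 0.094). The 24 h sums lay above the other 6, and their part in the SYT11 and SYP values was not tested. CHGA, CHGB and INSM1 were at 0 in untreated and treated libraries alike. ELAVL3, another marker of the list, had 0, 1 and 0 counts in untreated cells and 3, 3 and 3 after 24 h. The 24 h libraries of MAP2 lay above its untreated ones.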

How the data were processed

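Per the labels and the study's methods, the authors checked reads with FastQC, aligned them to hg38 with HISAT2 and counted paired reads over exons per gene name with featureCounts, using strand and the release of the GRCh38 annotation named in the study's methods; versions of the 3 tools are not given in the sources used here. The deposited values are raw counts for 59453 gene names in 9 libraries, with no normalization, and every column was used.

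In R 4.3.3 with edgeR 4.0.16, filterByExpr with a minimum count of 10 kept 16556 genes, which held 99.95% of the counts. All 9 libraries were fitted in 1 quasi-likelihood model with TMM factors and 1 coefficient per group, and with Benjamini-Hochberg adjustment over the full set of tested genes. A gene was called at an adjusted p under 0.05. CPM uses TMM-scaled library sizes. Log2 CPM for the likeness of genes used a prior count of 2. The common biological coefficient of variation was 0.0481. No pair of replicates agreed within sampling noise (chi-square per degree of freedom 2.387 to 21.25). With 3 libraries against 3, permuting libraries cannot give a share under 0.1. Counting limits the precision of genes with few counts, and a gene with at most 3 counts in every library has no fold change here.

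The members, lists and motifs were chosen with earlier results of these data known. Genes named are the members, the genes with the largest called changes of each list (at most 4 a direction), tested neighbours within 100 kb, and the 5 genes most like SYT11 and SYP; list genes named outside this rule, those not called among them, were chosen after their values were seen. Some genes that meet the rule are left out of the text. Positions and exon lengths are from GENCODE on hg38, promoters from RefSeq.

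On simulated counts, 178 of 200 changed genes were called in the right direction in the 24 h comparison, with 14 of 16069 unchanged genes called beside them, and 0 of 16269 genes were called in a group left unchanged. Alternatives were leaving out each library, a replicate block, a fit of only the 2 groups compared, DESeq2 1.42.0, upper-quartile or RLE factors, no filter, at least 10 counts in every library, a log2 limit of 0.5, and mitochondrial genes left out. When a library was left out the filter was run again, so the tested genes of a list can differ. The other cell lines and assays of the study were not analysed here.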

Additional observations from a re-analysis of the deposited data

Results flagged for a closer look

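Several genes moved differently at the 2 times, and edgeR's quasi-likelihood test of 24 h against 8 h called each of these differences (adjusted p under 0.05). Among the 10 genes, the difference was 1.19 on the log2 scale for SYT1 and 0.45 for STMN3, which were higher at 24 h and not called at 8 h. It was -0.54 for STX1A, higher at 8 h and lower at 24 h, and -0.39 for VAMP2, higher at 8 h alone.

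Among listed genes, UNC13A (1.69), SCG2 (1.5), BDNF (0.54) and RAB27A (0.53) lay below untreated cells at 8 h and above them at 24 h, each with its 24 h against 8 h log2 difference in parentheses. The opposite order, higher at 8 h and lower at 24 h, was seen for GAD1 (-1.12), SIN3B (-0.48), SMARCA4 (-0.46), STX3 (-0.44), EHMT2 (-0.38), USP7 (-0.35) and EHMT1 (-0.25). BDNF encodes a neurotrophin, SIN3B a corepressor scaffold, SMARCA4 a chromatin remodeller, and EHMT1 and EHMT2 histone H3 lysine methyltransferases.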

How the results depend on the processing

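SYT11 and SYP kept their direction in all fits, at 4.50 to 5.00 and 3.29 to 3.71 at 24 h, and no scaling moved the median of all genes by more than 0.026. REST against untreated at 24 h ranged from 0.12 to 0.25 without 1 library each. The replicate numbers did not pair the libraries (correlations of same-numbered deviations -0.0801 to 0.0383, and 1 of 9 libraries closest to its own number), and with the replicate number as a block REST was at 0.18 (edgeR adjusted p = 0.057), where the call was lost, so that 12 of 17 alternatives called it. REST at 24 h against 8 h (0.16) was called at 0.17 with RLE factors, upper-quartile factors, DESeq2, no filter, at least 10 counts in every library, or mitochondrial genes left out, and at 0.19 with only the 2 groups compared (adjusted p 0.0062 to 0.047 over these), and ranged from 0.10 to 0.24 without 1 library each. Its cause was not tested. Of the other synaptic genes at 8 h, 2 were higher, and 0 with a log2 limit of 0.5, and 0 were lower, but 1 (STMN3, -0.12) without TEPA 8 h replicate 2. With that limit 1 was higher and 0 were lower at 24 h, and 1 was higher and 1 lower at 24 h against 8 h.

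List medians near 0 changed sign in places. Without 1 library each, the SNARE median ranged from -0.07 to 0.01 at 8 h (above 0 without untreated replicate 1), from -0.06 to 0.00 at 24 h (0.00 without untreated replicate 2), and from -0.02 to 0.07 at 24 h against 8 h (-0.01 without TEPA 8 h replicate 3 and -0.02 without TEPA 24 h replicate 1). Without the filter, which adds genes near 0 counts, it was -0.09 and -0.03 for the other synaptic vesicle genes, 1.82 for neuronal markers at 24 h and -0.16 for the markers of the cell line at 8 h, where it ranged from -0.02 to 0.06 without 1 library each. With at least 10 counts in every library the corepressor median at 24 h against 8 h was 0.03. For the lowest genes, SNAP25 and SYN1 among them, depth limits what could be seen.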
